A study of Mus musculus and Homo sapiens with 23 samples.

Results

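The myeloid C-type lectin receptors are a set of 9 mouse genes chosen by name: Clec4e, Clec4d, Clec4n, Clec5a, Clec7a, Clec4a1, Clec4a2, Clec4a3 and Clec12a. Transcript rows were found for 8 of the 9 by RefSeq accession, 15 rows in all, out of 21599 genes in the RNA tables. None of the accessions that the name table gives for Clec7a stood in the tables. RNA came from BV2, an immortalised mouse microglial cell line, in 1 library of unstimulated cells and 1 library of cells stimulated for 3 h with lipopolysaccharide (LPS), a component of the outer membrane of Gram-negative bacteria. The sources used here do not state the LPS dose or the BV2 culture medium. The series was made to study H2BK20ac, an acetylated histone residue, in several cell types and in microglia stimulated with LPS. Its other 21 samples, of chromatin, were not analysed here.

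C-type lectin receptors are membrane proteins of macrophages, dendritic cells and microglia that bind sugars and lipids of fungi, mycobacteria and dying cells. The activating receptors signal through a tyrosine motif, held by a partner chain such as the Fc receptor gamma chain (Fcer1g) or DAP12 (Tyrobp), or by the receptor itself. The kinase Syk is recruited to it, and the Card9, Bcl10 and Malt1 complex downstream activates NF-kB. Inhibitory receptors of the family carry a motif that recruits phosphatases such as SHP-1, the product of Ptpn6.

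After 3 h of LPS, Clec4e and Clec4a1 were higher, Clec4d was higher in an estimate that the authors' software marked as failed in 1 library, and the other receptors counted stayed within the size rule. Clec4e, also called Mincle, the receptor for the mycobacterial cord factor, was 19.95 times as high in the LPS library. Levels are FPKM, fragments corrected for transcript length and for the size of the library, so that they can be set side by side between genes. Changes are differences of log2(FPKM + 1), LPS minus unstimulated, and a gene was called higher or lower when the change reached 1, which is a fold of 2 on that scale. With 1 library per group there is no replicate check and no test, and every difference compares these 2 libraries. Intervals are the 95% bounds deposited with each value, which cover counting and fragment assignment within a library. In bulk RNA, fewer cells with a transcript and less of it per cell cannot be told apart.

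The sequences before the starts of the 3 receptor genes that were higher, Clec4d only as listed, are shown first. These genes were higher in the same library and 2 of them are neighbours. The sequence of Clec12a, an inhibitory receptor whose level hardly differed, is given for contrast. Each holds the 250 bases before the annotated start, in the direction of the gene, from RefSeq on build GRCm38.p6. The regions are chr6:123289872-123290121 on the minus strand for Clec4e, and on the plus strand chr6:123261857-123262106 for Clec4d, chr6:122921598-122921847 for Clec4a1 and chr6:129349994-129350243 for Clec12a. Capitals mark matches to the motifs given after the sequences.
Clec4e: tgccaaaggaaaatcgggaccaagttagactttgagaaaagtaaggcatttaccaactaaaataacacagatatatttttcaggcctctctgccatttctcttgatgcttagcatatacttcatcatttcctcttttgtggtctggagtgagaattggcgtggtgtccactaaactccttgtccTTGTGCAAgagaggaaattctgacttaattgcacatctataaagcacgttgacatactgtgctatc
Clec4d: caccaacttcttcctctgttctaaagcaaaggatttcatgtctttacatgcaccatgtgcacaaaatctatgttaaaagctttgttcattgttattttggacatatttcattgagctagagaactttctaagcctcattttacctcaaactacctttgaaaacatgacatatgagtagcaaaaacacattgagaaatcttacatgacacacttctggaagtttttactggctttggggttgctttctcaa
Clec4a1: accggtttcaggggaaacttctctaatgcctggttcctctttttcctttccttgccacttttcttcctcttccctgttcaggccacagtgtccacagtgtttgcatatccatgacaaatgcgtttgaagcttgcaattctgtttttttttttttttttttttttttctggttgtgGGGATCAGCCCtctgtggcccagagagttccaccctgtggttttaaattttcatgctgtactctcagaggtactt
Clec12a: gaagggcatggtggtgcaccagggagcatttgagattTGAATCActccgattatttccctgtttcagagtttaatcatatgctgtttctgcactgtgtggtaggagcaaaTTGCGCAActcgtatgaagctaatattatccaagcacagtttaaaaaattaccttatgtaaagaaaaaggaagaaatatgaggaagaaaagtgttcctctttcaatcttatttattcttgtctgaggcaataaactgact

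Motifs were searched on both strands over the 250 bases before and 50 bases after each start: GGG and CC with any 5 bases between them for NF-kB, TGANTCA for AP-1, TTGCNNAA for C/EBP, GAGGAAGT for PU.1, and GAAA and GAAA with any 2 bases between for the interferon response element. The RefSeq table held such windows for 8 of the 9 receptor genes, all but Clec4n. The Clec4e window held a C/EBP match, TTGTGCAA, whose first base as printed lies 66 bases before the start. Clec12a, which stayed within the rule, also had a C/EBP match (TTGCGCAA, 140 bases before the start) and an AP-1 match. Among all 32851 windows in the table, 10.8% held the C/EBP letters and 7.81% the AP-1 letters. In the Clec4a1 window, 2 overlapping matches to the NF-kB letters (GGGATCAGCC and, on the other strand, GGATCAGCCC) lay 75 and 74 bases before the start, and 50.8% of all windows held such letters. The Clec4d window had no match among the bases shown, and 1 match to the interferon response element at the start itself, letters found in 3.44% of windows. The PU.1 letters were in 0 of the 8 receptor genes with a window and in 3.2% of all windows. A match describes the letters only, and binding was not measured here.

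Clec4e stood at 48.0 FPKM (46.0 to 49.9) in the unstimulated library and at 957 (949 to 965) in the LPS library. Its change was 4.29, and the ratio without the pseudocount was 19.95 (19.1 to 20.8). The intervals imply 2439 and 51122 fragments behind these values, so counting error is small beside the difference. Among the 10036 genes counted, those that reached 1 FPKM in at least 1 library, Clec4e went from rank 1511 to rank 120. It has 1 transcript row, at mm9 chromosome 6, 123231807 to 123239889.

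Clec4d, or MCL, is a receptor that pairs with Mincle and also signals through the Fc receptor gamma chain. Its gene (mm9 chromosome 6, 123212125 to 123225286) and Clec4e lie on opposite strands. The 6.52 kb between them separates the ends of the 2 genes, not their starts. Of its 2 transcript rows, NM_010819 carried nearly all of the level, at 60.6 FPKM (0 to 79.3) in the unstimulated library and 164 (159 to 169) in the LPS library. The status of both rows was FAIL in the unstimulated library, so that value is an estimate the software did not complete, and Clec4d was left out of the counts below. With the value taken as listed, the change of the gene was 1.41, and the upper bound of the unstimulated library lay below the lower bound of the LPS library.

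Clec4n, which encodes Dectin-2, a receptor for fungal mannans, stayed within the size rule. It stood at 6.41 FPKM (5.20 to 7.63) and 3.59 (1.92 to 6.01), a change of -0.69 with overlapping intervals. Its main row, NM_020001, was at 5.24 and 3.10 FPKM. Of the 3 receptors that use the Fc receptor gamma chain, Clec4e was above Clec4n in the unstimulated library, where the wide interval of Clec4d overlapped both, and after LPS the order was Clec4e, Clec4d and Clec4n with separate intervals.

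**Figure D1:**
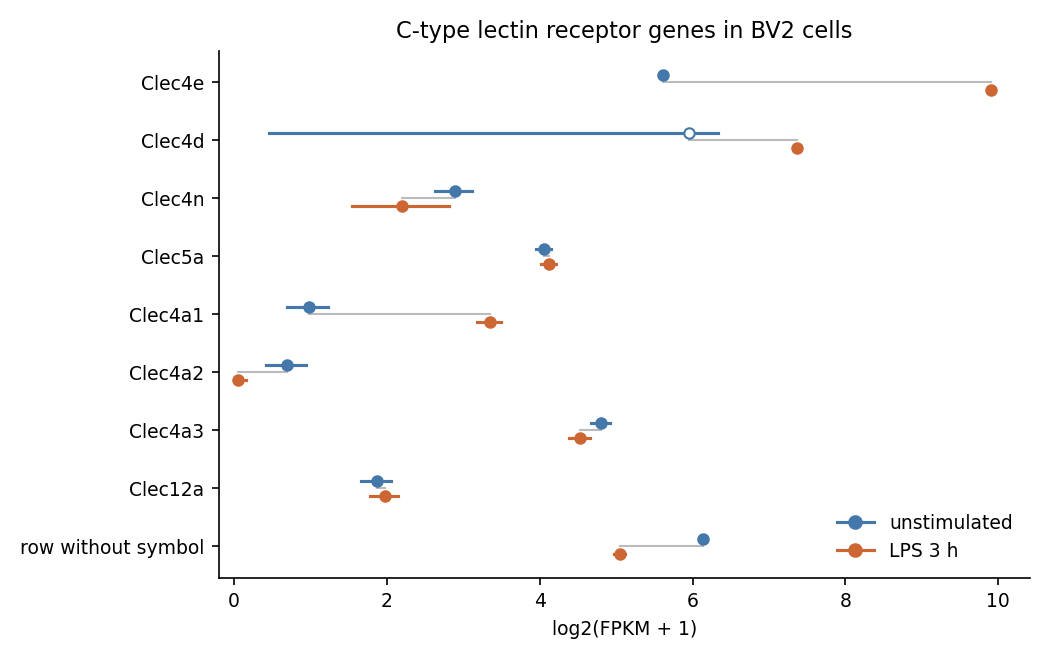
Level of each receptor gene on the log2(FPKM + 1) axis in the unstimulated (blue) and LPS (orange) libraries, with lines for the deposited 95% interval and an open circle for the Clec4d value of status FAIL. Clec4e moved farthest, from 48.0 to 957 FPKM, while Clec5a and Clec12a had overlapping intervals; the bottom line is the row without a symbol.

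Clec5a, or MDL-1, a receptor that signals through DAP12 and DAP10, kept its summed level while its transcripts shifted. The gene (mm9 chromosome 6, 40524897 to 40535804) summed to 15.6 FPKM (14.5 to 16.7) and 16.4 (15.2 to 17.5), a change of 0.06. Its row NM_001038604 went from 9.74 (8.89 to 10.6) to 6.74 (5.91 to 7.56). The other, NM_021364, went from 5.90 (5.19 to 6.60) to 9.62 (8.80 to 10.4). The intervals were separate for both rows, in opposite directions, and the share of NM_021364 was 37.7% without LPS and 58.8% with it. Such a pattern was not rare: of 2082 counted genes with 2 or more rows, 270 (12.97%) had rows with separate intervals in both directions, 239 of them with a summed change within the size rule.

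**Figure D2:**
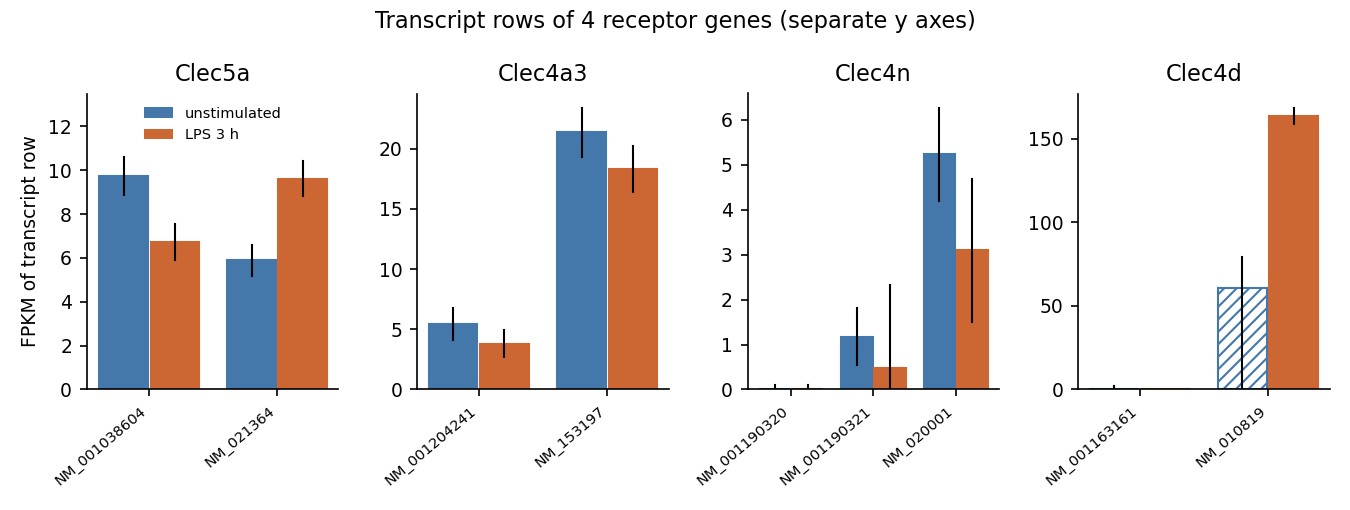
FPKM of each transcript row of Clec5a, Clec4a3, Clec4n and Clec4d in the unstimulated (blue) and LPS (orange) libraries, with the deposited 95% intervals as lines and hatching for status FAIL; each gene has its own y axis from 0. The 2 rows of Clec5a crossed (9.74 to 6.74 and 5.90 to 9.62 FPKM), and in the other genes the same row stayed the higher one.

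In the DCIR group, named after the dendritic cell immunoreceptor, only Clec4a1 passed the size rule. Clec4a1 (mm9 chromosome 6, 122871866 to 122884637) was at 0.975 FPKM (0.613 to 1.34) in the unstimulated library and 9.15 (8.07 to 10.2) in the LPS library, from 29 and 286 implied fragments. The change was 2.36 and the ratio 9.39 (6.36 to 13.9). Clec4a1 was counted through the LPS library alone, since its unstimulated level was below 1 FPKM.

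Clec4a3, next to it on the chromosome (122902533 to 122919896), stood at 26.8 FPKM (24.4 to 29.3) and 22.1 (19.9 to 24.3). That is a change of -0.27, within the size rule, with intervals just apart. Clec4a2, the receptor with an inhibitory motif from which the group takes its name, was below 1 FPKM in both libraries, at 0.622 (0.331 to 0.915) and 0.0395, and was not counted. Of the other genes inside the cluster, Clec4a4 was at 0.0513 and 0.0976 FPKM, and Clec4b1 and Clec4b2 were listed at 0 in both libraries. Genes of this group resemble one another, so fragments assigned to one can belong to another.

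Clec12a, or MICL, an inhibitory receptor for uric acid crystals (mm9 chromosome 6, 129300262 to 129315321), was at 2.66 FPKM (2.17 to 3.15) and 2.92 (2.42 to 3.42). These values rest on 118 and 136 implied fragments, and the intervals overlapped, with a ratio of 1.10 (0.853 to 1.41). A halving or a doubling lies outside that interval.

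Clec7a encodes Dectin-1, the receptor for fungal beta-glucan, and no row matched it by accession. The tables held a row, NM_020008, whose accession the name table does not hold. It lies between Clec1a and Olr1, and in the RefSeq name table Clec7a lies between the same 2 protein-coding genes. The row was at 69.5 FPKM (67.0 to 71.9) without LPS and 32.2 (30.5 to 33.8) with it, a change of -1.09 with separate intervals. After median scaling the change was -0.81, short of the size rule. Names were taken by accession only, so the row was not counted as a receptor gene, and counting it as Clec7a would make 1 receptor lower.

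Of the 6 receptor genes counted, 2 were higher, Clec4e and Clec4a1, and 0 were lower. Clec4a1 was counted through the LPS library alone, so the filter favoured its call as higher. Among all 10036 genes counted, 8.54% were higher and 12.4% lower by the same rule. That split of 857 against 1249 genes depends on scaling and was 766 against 2351 after rescaling to TPM, 1151 against 783 after median scaling and 958 against 842 after quantile normalisation. The number of receptors called higher was 2 under each of these, and 3 when Clec4d was counted as listed. The median change of the 6 was 0.08 and that of all counted genes -0.24. The sign of the median of the 6 is not fixed, as it became -0.17 after rescaling to TPM. Intervals were separate for 3 of the 6 (Clec4e, Clec4a1 and Clec4a3), against 73.6% of all counted genes. Over the 7 receptor genes of status OK, the summed level was 101 FPKM and 1011 FPKM, of which Clec4e made up 47.4% without LPS and 94.6% with it. Clec4a3 went from 26.5% to 2.19% of that sum, with a similar level of its own. With Clec4d as listed, the sums were 162 FPKM without LPS and 1175 FPKM with it. Clec4e then made up 29.6% and 81.5%, and Clec4d 37.6%, from its failed estimate, and 13.9%.

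**Figure D3:**
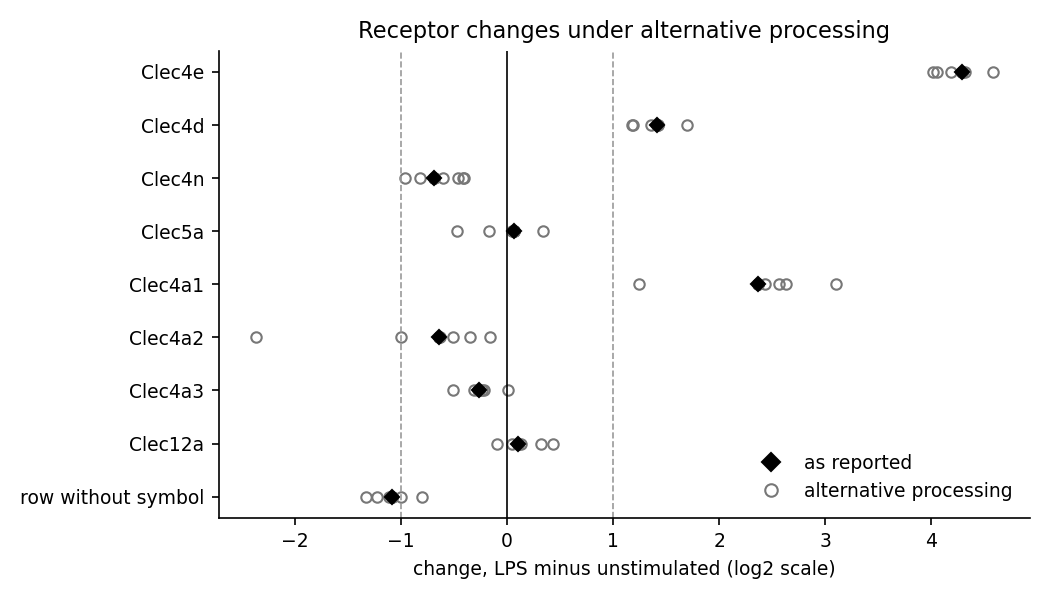
Change (LPS minus unstimulated, log2 scale) of each receptor gene as reported (black diamonds) and under alternative processing (open circles), with dashed lines at the size rule of 1. Clec4e stays between 4.02 and 4.58 and Clec4a1 between 1.24 and 3.11, both above the rule, while Clec5a, Clec12a and Clec4a3 lie on both sides of 0.

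By level and without Clec4d, the order in the unstimulated library was Clec4e, Clec4a3, Clec5a, Clec4n, Clec12a, Clec4a1 and Clec4a2. The last 2 had overlapping intervals. In the LPS library it was Clec4e, Clec4a3, Clec5a, Clec4a1, Clec4n, Clec12a and Clec4a2, and the intervals of Clec4n and Clec12a overlapped. Clec4a1 passed Clec4n and Clec12a, and the other 6 kept their order. Clec4d as listed stood at 61.0 FPKM (0.378 to 79.7) without LPS, above Clec4e in a failed estimate whose interval overlapped it. With LPS Clec4d stood at 164 FPKM, between Clec4e and Clec4a3.

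The 6 Clec4 genes of the set lie within 368 kb of mm9 chromosome 6. The 2 ends of this stretch held the genes that were higher, Clec4a1 at one and Clec4e at the other. Next to Clec4e lay Clec4d, higher only in the estimate marked as failed. Clec4a3, Clec4a2 and Clec4n lay between them and were within the rule or uncounted. With 250 kb added on each side, 12 other genes were in the tables, of which 4 were counted and 0 passed the size rule. Of all counted genes, 21% passed it in either direction, a share that so few neighbours cannot be read against. The highest of the 4 was C3ar1, the receptor of the complement fragment C3a, at 31.4 and 49.4 FPKM. Around Clec12a, 5 of 14 other genes or rows were counted. There Clec2d, a ligand of an inhibitory natural killer cell receptor, went from 7.08 to 53.2 FPKM, the activation marker Cd69 from 0 as listed to 9.34, and the row without a symbol was lower. None of the 3 counted neighbours of Clec5a passed the rule.

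**Figure D4:**
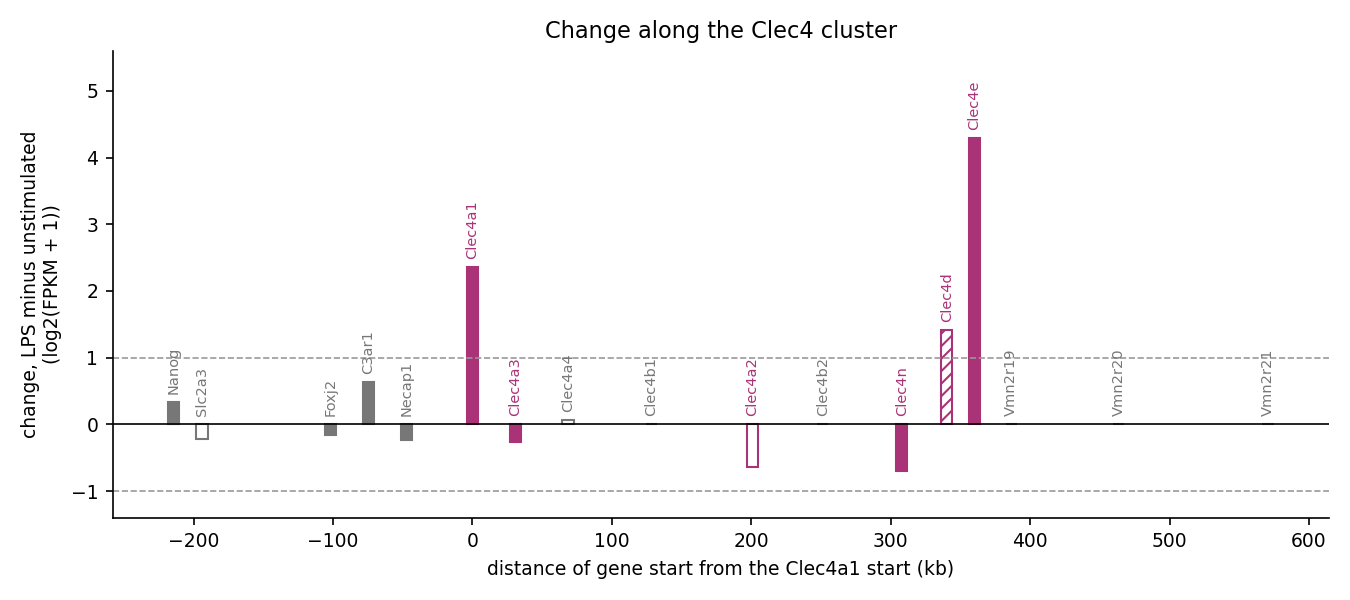
Change (LPS minus unstimulated, log2(FPKM + 1)) of each gene against the distance of its start from the Clec4a1 start in kb, with receptor genes of the set in purple and other genes in grey; open bars were below 1 FPKM in both libraries, hatching marks the FAIL status of Clec4d, and dashed lines the size rule of 1. Clec4a1 (2.36) and Clec4e (4.29) stand at opposite ends, and no grey bar reaches the rule.

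The partner chains of the receptors were abundant in both libraries and changed less than Clec4e. Fcer1g was at 1414 FPKM (1390 to 1437) and 1931 (1904 to 1958), a change of 0.45. Tyrobp, the DAP12 chain, was at 4128 and 3064, a change of -0.43. Fcer1g exceeded the summed level of Clec4e and Clec4n 26.0-fold without LPS and 2.01-fold with it. With Clec4d as listed, these ratios were 12.3 and 1.72. For Tyrobp over Clec5a they were 264 and 187. These are ratios of RNA levels per length, and Fcer1g and Tyrobp also serve other receptors.

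Of 26 signalling partners described, 25 were counted, 4 of them higher and 4 lower, with a median change of -0.23. Among all counted genes 8.54% were higher and 12.4% lower, and the median of -0.24 was nearly the same. Of the 4 that were higher, 3 encode kinases. Src, a tyrosine kinase of the cell membrane, went from 1.70 to 35.6 FPKM. Syk, the kinase that binds the tyrosine motif, went from 9.60 (8.81 to 10.4) to 38.04 (36.6 to 39.5), a change of 1.88. Prkcd, the protein kinase C that phosphorylates Card9, went from 26.9 to 112 FPKM.

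The Card9 complex did not move as 1 unit. Card9 itself was lower, at 19.7 FPKM (18.1 to 21.3) and 3.76 (3.08 to 4.44), a change of -2.12. Malt1, the protease of the complex, was higher (6.83 to 42.6). Bcl10 went from 7.26 to 14.4, a change of 0.90 that stayed short of the rule.

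Of the 3 phosphatase genes listed, 2 were lower, against 12.4% of all counted genes. Ptpn6, which encodes SHP-1, went from 99.3 (96.2 to 102) to 46.9 (44.8 to 48.9), a change of -1.07 that became -0.78 after median scaling, short of the rule. Inpp5d, the lipid phosphatase SHIP1, went from 9.05 to 1.58 FPKM. Ptpn11, the SHP2 gene, named here to complete the 3, was at 5.41 and 5.97. The fourth gene called lower was the transcription factor gene Nfatc2 (1.85 to 0.155), which a pseudocount of 5 moved to -0.41, short of the rule. Nfatc2 was counted through the unstimulated library alone.

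**Figure D5:**
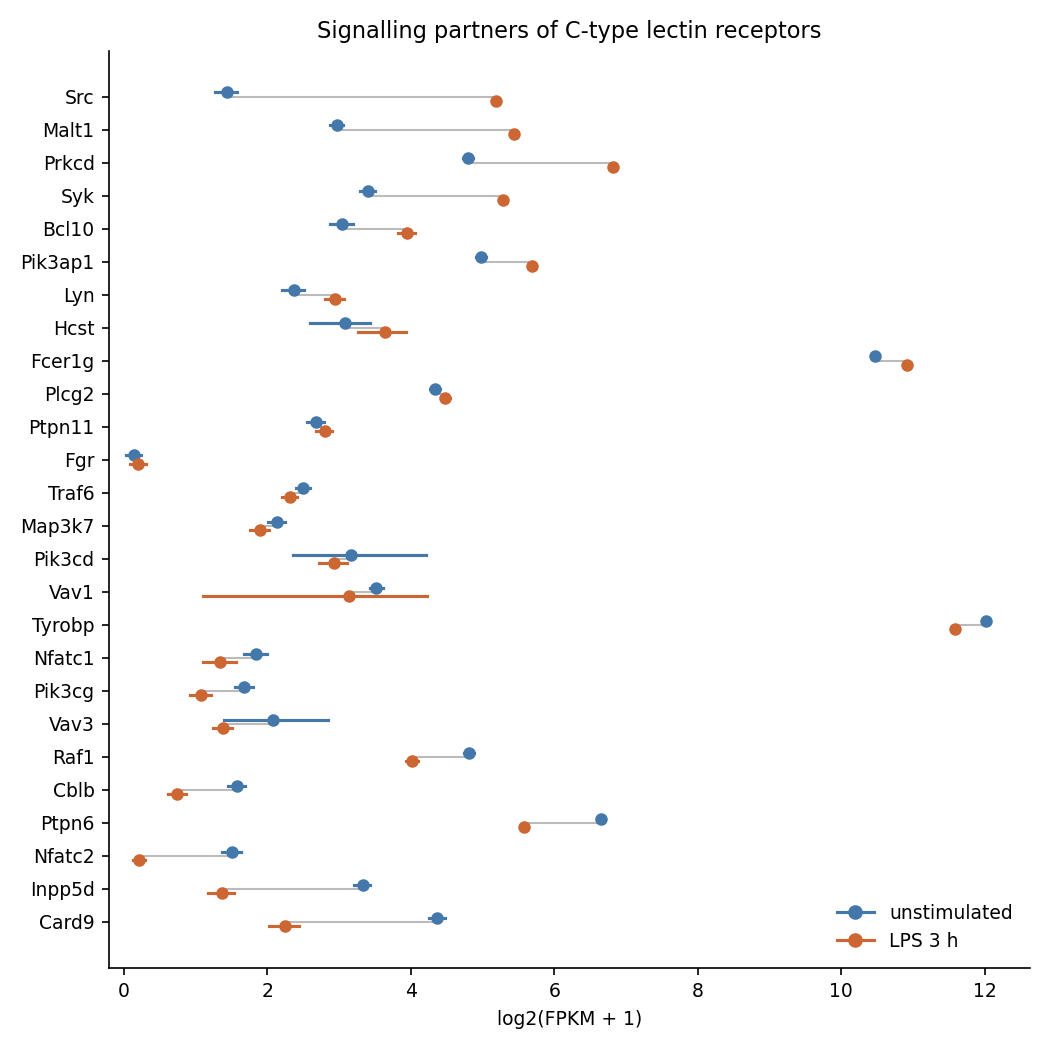
Levels of the 26 signalling partners on the log2(FPKM + 1) axis in the unstimulated (blue) and LPS (orange) libraries with deposited 95% intervals, ordered by change. Src, Malt1, Prkcd and Syk at the top were called higher, and Card9, Inpp5d, Nfatc2 and Ptpn6 at the bottom lower.

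Among 76 other genes listed as C-type lectins or their relatives, 75 were measured and 17 counted, of which 3 were higher and 2 lower (median -0.09). Whether each has a C-type lectin domain was not checked. The shares over all counted genes were 8.54% higher and 12.4% lower. Besides Clec2d and Cd69, the hyaluronan receptor Cd44 was higher (19.1 to 118 FPKM). The scavenger receptor gene Colec12 (70.3 to 27.02) and the thrombomodulin gene Thbd (2.20 to 0.197, short of the rule at a pseudocount of 5) were lower. Thbd was counted through the unstimulated library alone, and Cd69 through the LPS library alone. A further 34 were listed at 0 in both libraries. Of 20 listed cytokine, chemokine and enzyme genes that Syk and Card9 signalling can induce, 14 were counted, 7 of them through the LPS library alone. Of the 14, 13 were higher and 0 lower, against 8.54% and 12.4% of all counted genes. With a pseudocount of 5, 11 were higher, as Il10 (0.39) and Il23a (0.80) were then short of the rule, and a filter at 5 FPKM also left 11. LPS acts on the same genes through its own receptor, and which receptor drove them was not tested.

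The genes nearest to Clec4e over both libraries were Mapkapk2, a kinase downstream of p38 (38.3 to 798 FPKM), at a distance of 0.41 on the log2(FPKM + 1) scale, then Bcl2a1b (0.76) and Sqstm1 (0.90). Bcl2a1b has close paralogs, and its fragments may be shared with them. For Clec4n, the counted receptor gene with the largest fall in value, Itgb3bp, Ormdl3 and Rprd1b lay within 0.017. With 2 libraries such likeness describes 2 levels only.

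Markers fixed for the cell type were those of myeloid cells. Of 12 listed, 11 were measured and all 11 were counted, Lyz2 at 4280 and 2749 FPKM and Aif1, the lowest, at 3.19 and 3.88. The 2 called higher were Spi1 (217 to 707 FPKM), the gene of the myeloid transcription factor PU.1, and the LPS co-receptor gene Cd14 (85.9 to 593), and 0 were lower. The shares over all counted genes were 8.54% higher and 12.4% lower. The summed level of the 11 was 10912 and 9702 FPKM. Of 7 dendritic cell markers 2 were counted, both through the LPS library alone (summed level of the list 1.14 and 3.28 FPKM). Xcr1, 1 of these 2, was called higher (0.0536 to 1.40 FPKM). Of 8 neutrophil markers, 7 were measured and 2 counted (6.09 and 2.79), of which 1 was lower. None of the markers of neurons, astrocytes, oligodendrocytes, lymphocytes, or fibroblasts and endothelium reached 1 FPKM, with summed levels of at most 0.824 and 0.523 FPKM in a list.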

How the data were processed

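BV2 RNA was measured in 2 libraries, 1 unstimulated and 1 after 3 h of LPS, from total RNA with a strand-specific kit and 76-base reads, per the labels' protocols. The authors deposited FPKM values with lower and upper bounds and a status for 28246 rows, 1 per RefSeq transcript and locus. Per the submitters' processing notes these come from Cufflinks on mm9. Its version, the aligner and whether counting used strand were not given in the sources used here. Symbols came by accession from a RefSeq table of GRCm38.p6, used for names and gene order only (27560 rows matched, 97.6%). Starts were written 1-based. Rows not OK in both libraries (391) and 702 small RNA rows were dropped, and the remaining rows of each symbol were summed with interval half-widths combined in quadrature. Unmatched rows stayed as genes of their own. A pseudocount of 1 FPKM understates changes of low genes. Fragments behind a value are (2 × FPKM / half-width) squared, and 67.5% and 68.9% of low rows gave whole numbers within 0.05. Rounded to 3 digits, fragments summed to 13800000 and 16900000. Python 3.11.15 and pandas 2.3.3 were used. The calls were also run on simulated counts with counting error alone. Neither variation between libraries nor changes of low genes were covered by that run. The receptor genes and lists were chosen with earlier results of these data known. Named were all receptor genes, direct partners, cluster neighbours and the 3 nearest genes of the receptors with the largest rise and fall. Up to 4 genes per direction past the rule were named from the signalling partners and the other lectin genes. Of the genes downstream of Syk and Card9, only the 2 that fell short of the rule at a pseudocount of 5 were named. A listed signalling partner is not reported here. Alternatives were other pseudocounts, filters, scalings, row handling, statuses and size rules.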

Additional observations from a re-analysis of the deposited data

How the results depend on the processing

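No paired analysis was possible because each group is 1 library. Clec4e and Clec4a1 were higher under all 10 alternatives of scale, filter, pseudocount, rows, status and size rule. Changes lay between 4.02 and 4.58 for Clec4e and between 1.24 and 3.11 for Clec4a1. Each has 1 row, of status OK, so filter, row handling, status and size rule could not move these values. Only the pseudocounts and scalings moved them. Clec4d, whose unstimulated value has status FAIL, ranged from 1.18 to 1.70 and was short of a size rule of 1.5. Rescaling to TPM moved the median change of all counted genes by -0.25, median scaling by 0.25 and quantile normalisation by 0.12. Small changes turned with them: after TPM, Clec5a was at -0.17, Clec12a at -0.091 and the median of the receptors at -0.17, and after median scaling Clec4a3 was at 0.011 and that median at 0.33. With each transcript row on its own, Clec5a was at -0.47 and the median at -0.058. TPM also brought Clec4a2 into the count as lower, so that 1 receptor was lower, and 1 of the genes downstream of Syk and Card9. Counting the row without a symbol as Clec7a, an alternative chosen after seeing the data like those on Clec4d, gave 1 lower. Of all counted genes, 1249 were lower, and 2062 with a pseudocount of 0.1, 354 with 5, 2351 after TPM and 783 after median scaling. With a size rule of 1.5, 532 were higher (857 before) and 371 lower, as were 2 signalling partners and 0 other lectin genes. With a pseudocount of 5 or a filter at 5 FPKM, 1 other lectin gene was lower. Depth limits Clec4a2 and unstimulated Clec4a1 (29 implied fragments) most.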

Other observations

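Mgl2 and Clec10a, receptors for galactose-type sugars on macrophages, were picked out among the other C-type lectin genes after their values were seen. Mgl2 stood at 231 FPKM (225 to 236) without LPS and 217 (211 to 222) with it, and Clec10a at 72.8 (68.8 to 76.8) and 73.7 (69.7 to 77.7). The changes were -0.09 and 0.02. In the unstimulated library both were above Clec4e, at 48.0 FPKM, and in the LPS library both were below it. The macrophage mannose receptor gene Mrc1 was at 3.85 and 2.52 FPKM, a change of -0.46.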
